A study of Mus musculus with 44 samples.

Results

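Translating mRNA of hippocampal neurons was compared between simultaneous and separate isolation in mice that had early-life exercise (ELE). All ELE libraries of the Emx1-NuTRAP count table were taken, which gave 10 of its 20 libraries and 10 of the 44 samples of the series. In 4 of them (NT6.303, NT6.304, TG7.4.1 and TG7.4.2) simultaneous INTACT and TRAP (SIT) was used. The other 6 were separate TRAP isolations, from the left hippocampus in TG7.3.2, TG9.1.4 and TG9.2.2 and from the right hippocampus in TG7.3.1, TG9.1.3 and TG9.2.1. The members were chosen by label and mouse number and not by any measured value.

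The mice were males carrying Emx1-IRES-Cre and the NuTRAP reporter, and each library came from 1 mouse. ELE mice had a running wheel from postnatal day 21 to postnatal day 41 and were killed on the following day. Sedentary mice of the same genotype, which serve here only as a second set of SIT and separate libraries, were kept without a wheel. The isolation methods were compared by the study in order to find whether they give like results.

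In TRAP (translating ribosome affinity purification) a ribosomal protein, RPL10A, carries green fluorescent protein, and an antibody to that tag pulls down ribosomes with the mRNAs they are reading. In INTACT, biotin on the nuclear envelope of the same cells lets nuclei be pulled down on streptavidin beads. Cre under the Emx1 locus switches the reporter on in forebrain excitatory neurons and their progenitors, and it is also known to be active in some astrocytes, so the tag marks a lineage and not a single cell type.

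The isolations differed in more than the order of the steps. For SIT, both hippocampi of a mouse were cut with a razor blade in a nuclear preparation buffer and strained, and the pellets of a slow spin were resuspended. Nuclei were then pulled down, and the remaining supernatant was taken into TRAP. For the separate method, 1 hippocampus was ground with a motorized pestle directly in the TRAP buffer, which holds more detergent, and was cleared with uncoated protein-G beads, while the opposite hippocampus went into INTACT. The isolation method therefore cannot be told apart from bilateral against unilateral tissue, from the way the tissue was broken up or from the buffer. Mouse numbers starting with NT6 were only in SIT and those starting with TG9 only in separate isolation, and TG7 mice were in both. What these prefixes stand for is not given in the sources used here.

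Between 51744157 and 58097062 counts were deposited per SIT library and between 50436108 and 65767802 per separate library. Spearman's rho between libraries over the genes tested was 0.967 to 0.987 within SIT, 0.977 to 0.990 within separate isolation and 0.967 to 0.985 between the methods. In all 45 pairs the libraries differed by more than counting error (chi-square divided by the number of genes, 21.6 or more). The study left out some ELE and sedentary RNA samples as outliers, and its text does not give their mouse numbers. All libraries were kept in the main fits here. NT6.304 stood apart from the other SIT libraries. Its summed striatal marker level was 896 counts per 1000000 (CPM) against 156 to 183 CPM in the other 3, its interneuron markers summed to 1110 CPM against 246 to 357 CPM, and its immediate early genes to 8165 CPM against 1778 to 2443 CPM. TG9.1.4 was the highest separate library for the same striatal and interneuron markers, at 318 and 656 CPM. In TG7.4.2, genes annotated as ribosomal RNA took 0.731% of the counts (95% Wilson interval 0.728 to 0.733%, counting error only) against 0.0400 to 0.113% in the other 9 libraries.

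Of 17943 genes tested, 593 were higher in SIT, or 3.30% of those tested, and 821 were lower in SIT, or 4.58%, at an adjusted p under 0.05 in edgeR's quasi-likelihood test. At an unadjusted p under 0.05 together with a change over 1.3-fold, which follows the threshold of the study, 707 (3.94%) were higher and 1336 (7.45%) lower. All 4 SIT libraries lay above all 6 separate libraries for 833 genes, or 4.64%, and below them for 880 genes, or 4.90%. An unadjusted p under 0.05 was found for 4040 genes, or 22.5%. The median log2 change of all genes tested was 0.0049, so the changes below need no further centring. Without NT6.304, 733 genes (3.97%) were higher and 986 (5.34%) lower. Leaving out each of the other libraries in turn gave 334 to 595 higher and 480 to 828 lower. The lowest counts were 334 and 480 without TG7.4.1, 351 and 504 without TG7.3.1, 361 and 505 without TG9.2.2, 385 and 536 without TG9.2.1 and 386 and 556 without NT6.303. With 3 separate libraries in place of 6, 41 genes were higher and 98 lower against the right hippocampus alone, with 2707 genes at an unadjusted p under 0.05. Against the left hippocampus alone 0 genes were called in either direction in edgeR, with 2424 genes at an unadjusted p under 0.05. Left and right separate ELE libraries did not differ in any of 17696 genes in edgeR, with 338 genes at an unadjusted p under 0.05. With the prefix of the mouse number as a term, which leaves the comparison to the TG7 mice, 19 genes were higher and 20 lower.

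As a check of the tissue, Emx1 itself, the gene whose locus drives Cre, was at 23.4 ± 6.91 CPM (SD, n = 4) in SIT and 21.8 ± 3.08 CPM (SD, n = 6) in separate isolation. Neither Emx1 nor Mog (oligodendrocytes), Itgam (microglia), Aqp4 (astrocytes) or Gad1 (inhibitory neurons) was called. Single genes do not stand for a cell type, and called members of the astrocyte and oligodendrocyte lists are given further on. Slc17a7, the vesicular glutamate transporter of excitatory forebrain neurons, was between 3063 and 3781 CPM in SIT and between 3227 and 4018 CPM in separate isolation. Itgam was at or under 0.478 CPM in each of the 10 libraries. Rpl10a, whose reads from the endogenous gene and from the tagged transgene cannot be told apart, was at 603 ± 63.0 CPM in SIT and 499 ± 35.0 CPM in separate isolation (log2 change 0.28, SE 0.08, adjusted p = 0.0561).

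Of the gene lists, transcripts of the mitochondrial genome had the largest median difference. Mitochondria transcribe their own small genome and translate it on their own ribosomes, so these mRNAs are not templates of the cytosolic ribosomes that TRAP tags. All 13 mitochondrial mRNAs were higher in SIT, where 3.30% of all genes were. Their log2 changes lay between 1.05 and 2.56, with a median of 2.28. Their summed level was 2339 CPM in NT6.303, 1849 CPM in NT6.304, 3417 CPM in TG7.4.1 and 4909 CPM in TG7.4.2, and in separate isolation it ran from 663 to 1109 CPM with a median of 805 CPM. Every SIT library was above every separate library, but the SIT libraries also differed among themselves more than the separate ones did. As a share of all counts, genes of the mitochondrial genome took 0.195 to 0.523% in SIT and 0.0750 to 0.122% in separate isolation.

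mt-Nd4 (mitochondrial genome of GRCm38, 10167 to 11544), a subunit of respiratory complex I, was at 372, 273, 525 and 681 CPM in NT6.303, NT6.304, TG7.4.1 and TG7.4.2, and at 60.1, 72.7 and 112 CPM in the lowest, the median and the highest separate library (5.91-fold, log2 change 2.56, SE 0.23, adjusted p = 0.000356). mt-Cytb (14145 to 15288), the cytochrome b of complex III, was at 357, 268, 561 and 685 CPM against 67.5, 77.1 and 119 CPM (5.58-fold, adjusted p = 0.000360). Within SIT the TG7 libraries were the higher pair for both. The mRNAs of cytochrome c oxidase subunits had the smaller differences, with log2 changes of 1.05 for mt-Co1, 1.36 for mt-Co2 and 1.37 for mt-Co3. Of 6 mitochondrial ribosomal and transfer RNAs tested, 5 were higher in SIT (1 without TG7.3.1, 2 without TG9.2.1, 3 without TG7.4.1, TG7.4.2 or TG9.2.2), among them the larger ribosomal RNA mt-Rnr2 (log2 change 1.06) and the glutamate transfer RNA mt-Te (2.25).

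On chromosome 1 (GRCm38, 24611535 to 24616197) lie 7 annotated unprocessed pseudogenes that are near copies of mitochondrial sequence. All 7 were higher in SIT, with log2 changes from 1.09 for Gm29216 to 2.51 for Gm28439. Reads of the copies and of the mitochondrial genome could have been split between them in counting, so the values of these pseudogenes and of the mitochondrial genes they resemble are uncertain.

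Mitochondrial proteins are for the most part encoded in the nuclear genome. Of 84 nuclear-encoded respiratory chain genes tested, 3 were higher and 7 lower, with a median log2 change of 0.08, against 3.30% higher and 4.58% lower over all genes. With 1 library left out the median was 0.023 to 0.11, and 1 was higher without TG7.4.1, TG7.4.2, TG7.3.2, TG9.1.3, TG9.2.1 or TG9.2.2. The lower ones included Atp5b, the catalytic beta subunit of ATP synthase (log2 change -0.31, SE 0.06, adjusted p = 0.0103), Ndufs1, the largest subunit of complex I (-0.41), and Sdha of complex II (-0.30), and the higher ones were Sdhd (0.34), Ndufc1 (0.34) and Ndufab1 (0.30). Of 77 mitochondrial ribosomal protein genes, 9 were higher, 0 were lower and 68 were not called, and 5 were higher without NT6.303 and 4 without TG7.4.1. Their summed level was 2720 to 2907 CPM in SIT and 2423 to 2585 CPM in separate isolation, without overlap.

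**Figure D1:**
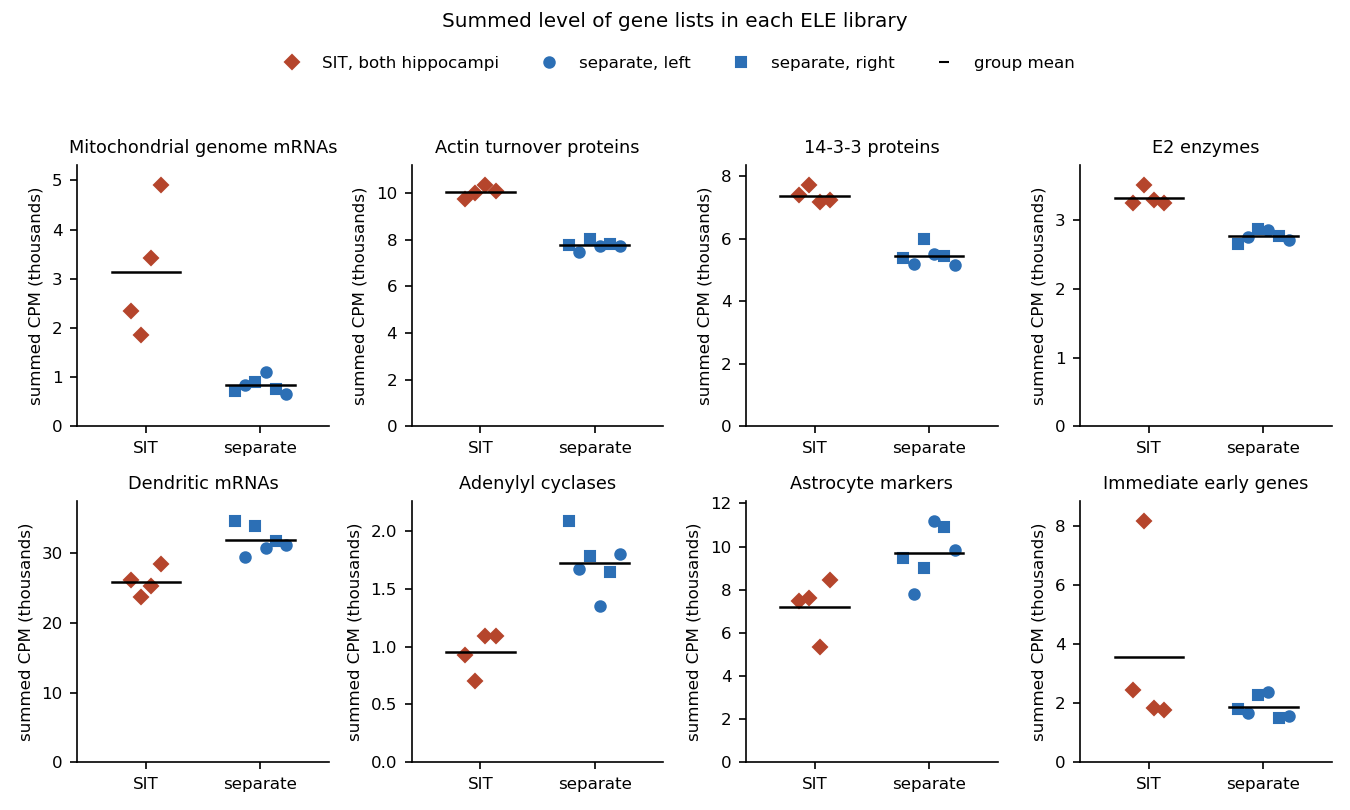
Summed level of 8 gene lists in each ELE library in CPM, with SIT as diamonds, separate left hippocampus as circles and separate right hippocampus as squares. Horizontal lines are group means and every axis starts at 0. The groups do not overlap for mitochondrial mRNAs, actin turnover proteins, 14-3-3 proteins, E2 enzymes, dendritic mRNAs and adenylyl cyclases, they overlap for astrocyte markers, and 1 SIT library (NT6.304, 8165 CPM) sets the mean of the immediate early genes.

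Of the neuronal lists, mRNAs of dendrites and of the postsynaptic side gave the most genes lower in SIT. Some mRNAs are carried along dendrites and are translated there close to synapses, which is a known way for neurons to change single synapses. On a list of 28 mRNAs known from dendrites, 15 were lower in SIT, 0 were higher and 13 were not called, with a median log2 change of -0.34. Over all genes tested 4.58% were lower and the median was 0.0049. Their summed level was 23725 to 28425 CPM in SIT and 29338 to 34562 CPM in separate isolation, so the groups did not overlap, although they lay close.

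Shank3 (chromosome 15, 89499623 to 89560261), a master scaffold of excitatory synapses, was at 143, 144, 139 and 133 CPM in NT6.303, NT6.304, TG7.4.1 and TG7.4.2, and at 277, 320 and 381 CPM in the lowest, the median and the highest separate library. This was 2.35-fold lower in SIT (log2 change -1.23, SE 0.10, adjusted p = 0.000356), and the 4 SIT libraries lay close together. Shank1 (chromosome 7, 44310253 to 44360572), its close relative, whose mRNA is known from dendrites, was at 332, 401, 333 and 416 CPM against 774, 920 and 1231 CPM (2.62-fold lower, log2 change -1.39, SE 0.13, adjusted p = 0.000360). Shank2, the remaining member of the family, was lower with a log2 change of -0.49. Agap2, a GTPase-activating protein of the postsynaptic density, was at 1704, 1520, 1542 and 1874 CPM against 2502, 2784 and 3010 CPM (log2 change -0.75, SE 0.08).

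Camk2a, the alpha subunit of the calcium/calmodulin kinase of synaptic plasticity, was at 2823, 2103, 2721 and 3253 CPM in SIT and at 3936, 4155 and 5253 CPM in the lowest, the median and the highest separate library (log2 change -0.66, SE 0.12, adjusted p = 0.00568). Ddn, which encodes the dendritic protein dendrin, had a log2 change of -0.73, and Itpr1, the calcium release channel of the endoplasmic reticulum, had one of -0.83. The list did not move as a block. Nrgn, the calmodulin-binding protein neurogranin, and Hpca, the calcium sensor hippocalcin, are also on it and were not called, with log2 changes of 0.29 (adjusted p = 0.0717) and 0.28 (adjusted p = 0.111).

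The 28 postsynaptic scaffold genes are a family added after values had been seen that shares 8 called members with the dendritic list. Of them 12 were lower, against 4.58% of all genes, 0 were higher and 16 were not called. The summed level was 10786 to 11832 CPM in SIT and 13948 to 16518 CPM in separate isolation. Beside the Shank genes, Dlgap3 (log2 change -0.73), Iqsec3 (-0.95) and Ppp1r9b, the spine protein spinophilin (-0.64), were lower. Dlg4, which encodes PSD-95, had a log2 change of -0.30 and an adjusted p = 0.0469, and without NT6.304 its adjusted p was 0.0761.

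Some receptor and channel genes were also lower in SIT. Of 22 glutamate receptor subunits, 7 were lower, against 4.58% of all genes, and 0 higher, with a median log2 change of -0.29. The number lower was 3 without NT6.303, TG9.1.3 or TG9.2.1 and 4 without TG7.4.1, TG9.2.2 or TG7.3.1. Grin2c, an NMDA receptor subunit, was at 32.5, 34.6, 29.4 and 44.0 CPM in the SIT libraries and at 62.8, 87.4 and 108 CPM in the lowest, the median and the highest separate library (log2 change -1.31, SE 0.15, adjusted p = 0.000596). Grin2b and Grin2a, the main NMDA receptor subunits of hippocampal neurons beside Grin1, had log2 changes of -0.50 and -0.34. Grm3, a metabotropic glutamate receptor, had one of -1.19. Grin2c and Grm3 are also known from astrocytes, whose markers had a median log2 change of -0.58, and the part of astrocyte RNA in these values was not tested. None of 12 GABA-A receptor subunits was called in edgeR, and their median log2 change was 0.03.

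Of 27 potassium channel genes, 7 were lower and 0 higher, where 4.58% of all genes were lower. The summed level was 3154 to 3382 CPM in SIT and 3811 to 4371 CPM in separate isolation. Hcn2, a channel opened by hyperpolarization, was at 206, 210, 199.8 and 288 CPM in the SIT libraries and at 291, 341 and 379 CPM in the lowest, the median and the highest separate library (log2 change -0.58, SE 0.11, adjusted p = 0.00901). The groups did not overlap, but TG7.4.2 lay close to the lowest separate library.

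Adenylyl cyclases make cyclic AMP, a messenger that neurons use in long-term plasticity. In this family, added after values had been seen, 6 of 8 tested genes were lower, against 4.58% of all genes, and 0 were higher. Their median log2 change was -0.68. The summed level was 931 CPM in NT6.303, 703 CPM in NT6.304, 1089 CPM in TG7.4.1 and 1094 CPM in TG7.4.2, against 1346 to 2086 CPM in separate isolation. Adcy5 was at 145, 154, 131 and 173 CPM against 270, 276 and 316 CPM in the lowest, the median and the highest separate library (log2 change -0.91, SE 0.08, adjusted p = 0.000360). Adcy1, a calcium-stimulated cyclase of hippocampal neurons, was at 544, 347, 725 and 677 CPM against 713, 1117 and 1434 CPM (log2 change -0.93, SE 0.21, adjusted p = 0.0196), so that here TG7.4.1 overlapped the lowest separate library.

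Further families, also added after values had been seen, had members that were lower and 0 that were higher. Lower were 4 of 9 plexins (semaphorin receptors), 5 of 19 receptor tyrosine phosphatases, 4 of 17 adhesion G protein-coupled receptors, 2 of 8 alpha subunits of voltage-gated calcium channels, 9 of 35 kinesin motors and 5 of 9 CHD chromatin remodellers, which are nuclear proteins, against 4.58% of all genes. Without NT6.304, 9 of 20 receptor tyrosine phosphatases were lower. Kinesins numbered 4 without TG7.4.1 and 5 without TG7.4.2, TG7.3.1, TG9.1.4 or TG9.2.2, calcium channels 1 without NT6.303 or TG7.4.1, and CHD remodellers 3 without NT6.303, TG7.4.1, TG7.3.1, TG9.1.4, TG9.2.1 or TG9.2.2. Plxnd1 was at 27.7, 22.6, 22.1 and 25.8 CPM in SIT against 42.5, 53.4 and 61.7 CPM in the lowest, the median and the highest separate library (log2 change -1.11, SE 0.11, adjusted p = 0.000404). Of 27 nuclear pore genes, a list taken up with the others, 5 were lower and 0 higher (3 lower without NT6.303, TG7.4.1, TG7.3.1, TG9.1.4, TG9.2.1 or TG9.2.2), led by Tpr (log2 change -0.65), a coiled-coil protein of the nuclear basket, and Nup214 (-0.62).

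Other genes with the smallest p-values among those lower in SIT came from several functions. Mllt6 (chromosome 11, 97663414 to 97685463), a zinc finger protein known as a fusion partner of a leukaemia gene, was at 83.4, 60.04, 68.8 and 88.8 CPM against 171, 182 and 203 CPM in the lowest, the median and the highest separate library (log2 change -1.28, SE 0.11, adjusted p = 0.000356). Shc3, a neuronal adaptor of receptor tyrosine kinases, had a log2 change of -1.14, and Lrp4, a receptor best known from the neuromuscular junction, one of -1.11. Neurl1a, a ubiquitin ligase, had one of -0.87, Dab2ip, a Ras GTPase-activating protein, one of -0.76, and Prrc2a, a large proline-rich protein, one of -0.70. All of these were named from genes whose groups did not overlap.

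**Figure D2:**
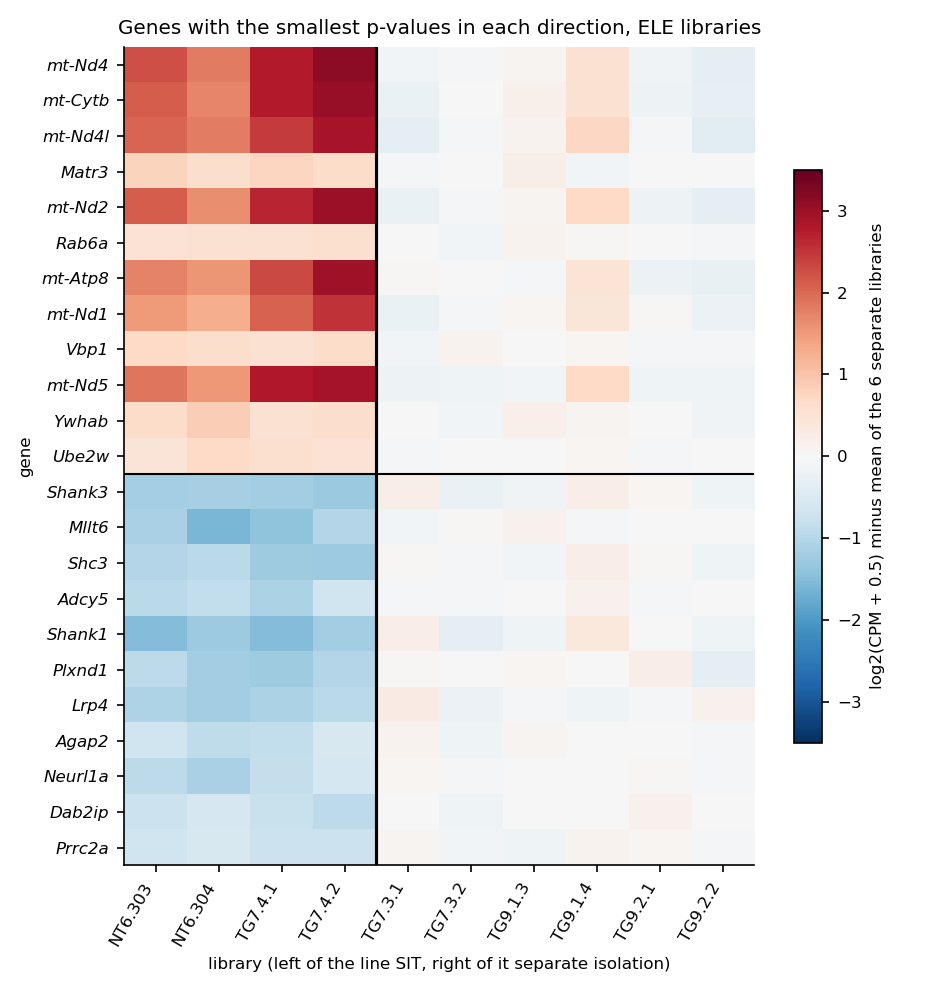
Level of genes with the smallest p-values in each direction (12 higher, and 1 of the 12 lower not shown) in each ELE library, as log2(CPM + 0.5) minus the mean of the 6 separate libraries. Columns left of the vertical line are SIT and those right of it separate isolation, and red is higher and blue lower. The 7 mitochondrial genes are the darkest rows and are darkest in TG7.4.2, while TG9.1.4 is the separate library nearest to SIT for them.

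Several lists gave genes higher in SIT. Actin filaments are built and taken apart in spines and growth cones by a set of small proteins such as cofilin and profilin. Of 28 actin turnover genes, 13 were higher in SIT, 0 were lower and 15 were not called, with a median log2 change of 0.30, where 3.30% of all genes were higher. Their summed level was 9727 to 10354 CPM in SIT and 7494 to 8042 CPM in separate isolation. This family and the 3 that follow were added after values had been seen.

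Cfl1, the filament-severing cofilin, was at 1015, 1263, 1040 and 1157 CPM in NT6.303, NT6.304, TG7.4.1 and TG7.4.2 and at 676, 732 and 828 CPM in the lowest, the median and the highest separate library (log2 change 0.58, SE 0.08, adjusted p = 0.00186). Cap1, a cyclase-associated protein that recycles actin monomers, was at 470, 567, 480 and 430 CPM against 307, 320 and 334 CPM (log2 change 0.60, SE 0.08, adjusted p = 0.00106). Tmsb4x, the monomer-binding thymosin beta 4, was at 1833, 1496, 2227 and 2233 CPM against 1167, 1335 and 1407 CPM (log2 change 0.57, SE 0.10, adjusted p = 0.00723). None of these 3 genes overlapped between the groups, and the SIT library that was highest was not the same for all of them.

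The 14-3-3 proteins are small adaptors that bind phosphorylated serines in many signalling proteins. Of 7 tested genes, 6 were higher in SIT and 0 lower, where 3.30% of all genes were higher. Their summed level was 7152 to 7714 CPM against 5149 to 5989 CPM. Ywhab (chromosome 2, 163994960 to 164018588) was at 957, 1115, 886 and 945 CPM in the SIT libraries and at 565, 604 and 688 CPM in the lowest, the median and the highest separate library (log2 change 0.67, SE 0.08, adjusted p = 0.000832). Ywhaz, another member, had a log2 change of 0.53 (SE 0.06, adjusted p = 0.000850).

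Of 30 E2 ubiquitin-conjugating enzymes, which hand ubiquitin on to substrates, 10 were higher and 1, the unusually large Ube2o, was lower (log2 change -0.32). Over all genes 3.30% were higher and 4.58% lower. Ube2w was at 137, 160, 145 and 140 CPM in SIT against 94.5, 99.5 and 103 CPM in the lowest, the median and the highest separate library (log2 change 0.55, SE 0.07, adjusted p = 0.000832). Of 55 Rab GTPases, which direct membrane traffic, 13 were higher and 0 lower, with 8 higher without NT6.303 or TG9.2.2. Rab6a (chromosome 7, 100607410 to 100641268), the Rab of the Golgi, was at 503, 520, 520 and 526 CPM against 336, 353 and 384 CPM (log2 change 0.54, SE 0.06, adjusted p = 0.000498), with little spread in either group. Vbp1, a subunit of the prefoldin chaperone, was likewise higher (log2 change 0.62, SE 0.07, adjusted p = 0.000596).

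Of 32 synaptic vesicle and release genes, 8 were higher in SIT, 1 was lower and 23 were not called. Over all genes 3.30% were higher and 4.58% lower. The list had a median log2 change of 0.18 and a summed level of 25922 to 27537 CPM against 23764 to 25195 CPM. Snap25, a SNARE protein of vesicle fusion, was at 2518, 2273, 2556 and 2584 CPM in SIT and at 1809, 1986 and 2199 CPM in the lowest, the median and the highest separate library (log2 change 0.32, SE 0.06, adjusted p = 0.0108). Syt1, the calcium sensor of release, had a log2 change of 0.36 (SE 0.07, adjusted p = 0.0131). The member that was lower was Unc13a (-0.38), a large priming factor of the active zone. This count changed with the libraries used, with 2 genes higher without TG7.4.1, 3 without TG7.3.2, TG9.2.1 or TG9.2.2, 4 without NT6.303 and 5 without TG9.1.3, TG7.4.2 or TG7.3.1.

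Of 30 splicing factors, 5 were higher and 0 lower, where 3.30% of all genes were higher. The higher ones included Srsf1 (log2 change 0.60) and Srsf2 (0.48). The number higher was 2 without TG7.3.1, TG7.3.2, TG9.2.1 or TG9.2.2, 3 without NT6.304 or TG7.4.1 and 8 without TG7.4.2. Matr3, a nuclear matrix protein that binds RNA, was higher too, at 216, 191, 212 and 197 CPM in SIT against 117, 124 and 143 CPM in the lowest, the median and the highest separate library (log2 change 0.70, SE 0.07, adjusted p = 0.000494). Of 83 cytosolic ribosomal protein genes, 1 was higher and 0 lower, and 0 to 4 were higher with 1 library left out. Their median log2 change was 0.18, with 10398 to 12913 CPM in SIT and 9701 to 11280 CPM in separate isolation, which overlapped. None of 38 proteasome subunits was called in edgeR, and their median log2 change was 0.04.

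**Figure D3:**
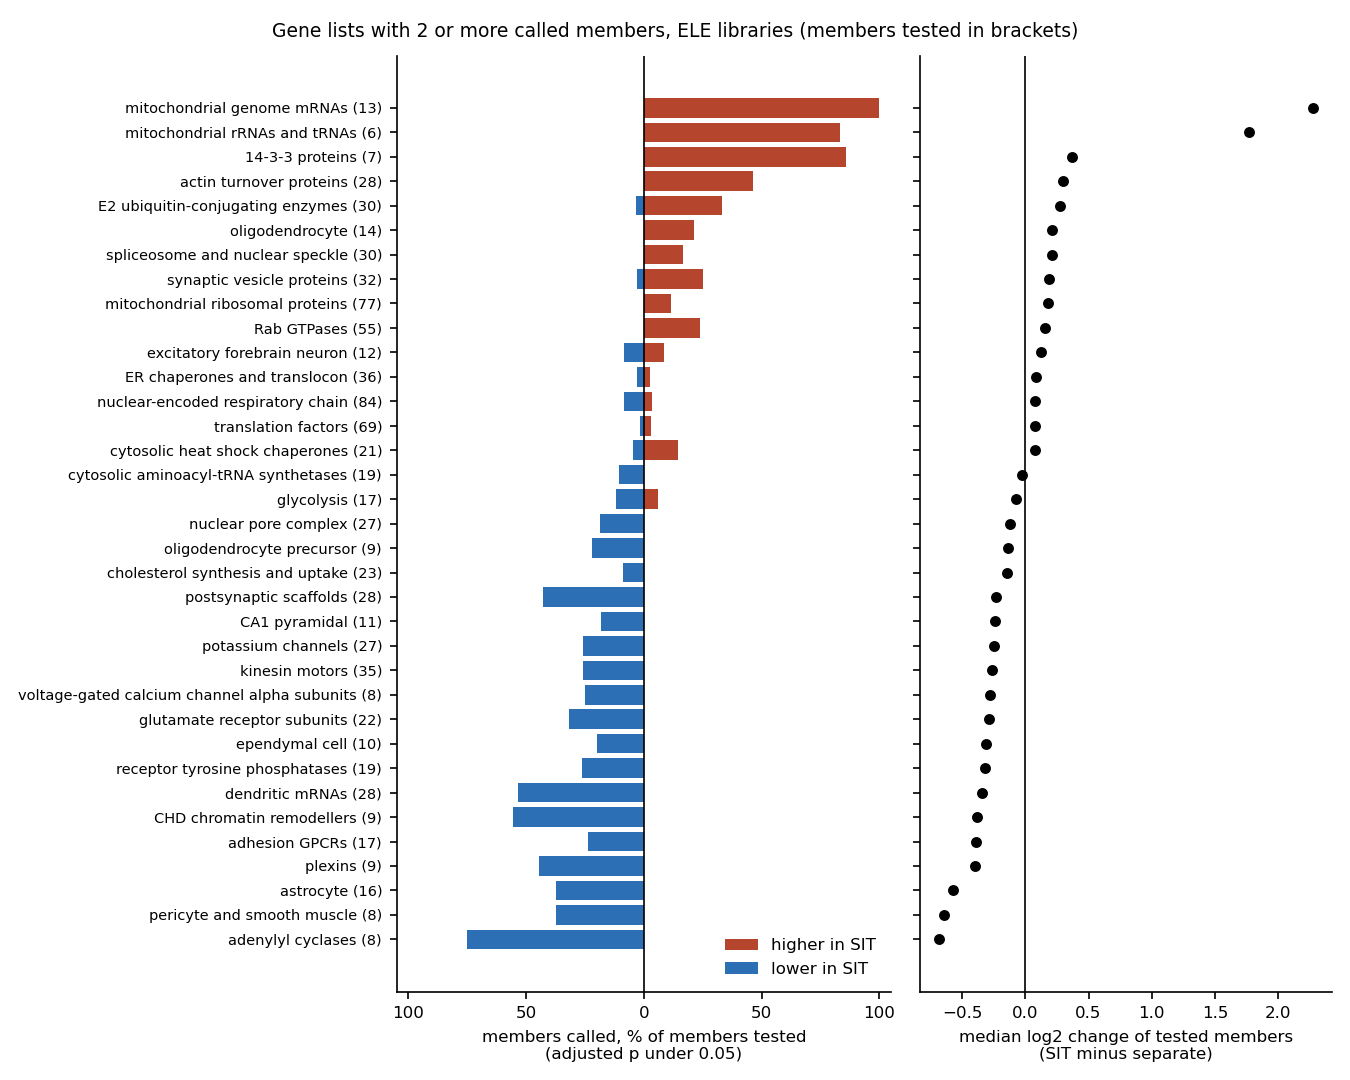
Gene lists with at least 2 called members in the ELE libraries. The left axis gives the members called higher (red) or lower (blue) in SIT as a percentage of those tested, the number of which is in brackets, and the right axis gives the median log2 change of the tested members. Mitochondrial transcripts, 14-3-3 proteins and actin turnover proteins stand at the top and adenylyl cyclases (6 of 8 lower) at the bottom. Of these, the 14-3-3 proteins, actin turnover proteins and adenylyl cyclases were added after values had been seen.

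Markers of other cell types went in no single direction. Astrocytes take up glutamate at synapses, and in them some mRNAs are translated in fine processes. Of 16 astrocyte markers 6 were lower in SIT, against 4.58% of all genes, 0 were higher and 10 were not called. Their median log2 change was -0.58. Without TG7.4.2, 12 were lower. Their summed level was 5332 to 8462 CPM in SIT and 7785 to 11192 CPM in separate isolation, so that the groups overlapped. In bulk libraries fewer cells of a type and less RNA per cell cannot be told apart. Slc1a2, the main glutamate transporter, was at 2073, 1809, 1655 and 2724 CPM in the SIT libraries and at 2649, 3371 and 3773 CPM in the lowest, the median and the highest separate library (log2 change -0.70, SE 0.13, adjusted p = 0.00921). Fgfr3, a growth factor receptor of astrocytes, was at 72.4, 84.1, 64.0 and 125 CPM against 136, 154 and 172 CPM (log2 change -0.83, SE 0.16, adjusted p = 0.00953). Gfap, the intermediate filament of astrocytes, was not called, at 1139 to 3261 CPM in SIT and 1263 to 3914 CPM in separate isolation.

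Of 14 oligodendrocyte markers, 3 were higher in SIT (1 without NT6.303, TG7.3.1 or TG9.2.1) and 0 lower. Over all genes 3.30% were higher and 4.58% lower. The markers summed to 3015 to 4387 CPM in SIT and 3006 to 3600 CPM in separate isolation. The higher ones included Ermn (log2 change 0.58) and Cnp (0.34), while Mbp, whose mRNA is carried into myelin, was not called (log2 change 0.05, adjusted p = 0.876). None of 14 tested microglia markers was called in edgeR, and their summed level was 8.998 to 18.9 CPM in SIT and 10.2 to 16.7 CPM in separate isolation. None of 13 endothelial markers was called either, with 48.8 to 59.1 CPM against 58.3 to 66.6 CPM. Of 8 markers of pericytes and smooth muscle 3 were lower, at sums of 23.7 to 36.8 CPM against 36.6 to 47.0 CPM, and 1 was lower without NT6.304, TG9.1.3 or TG7.3.1. What part these cell types had in the neuronal differences was not tested.

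Neuron subtype markers form short lists, and their calls rest on 1 or 2 genes per list. Of all genes tested, 3.30% were higher and 4.58% lower. Of 12 excitatory forebrain neuron markers, 1 was higher (Neurod1, log2 change 0.70) and 1 lower (Camk2a). Prox1, the transcription factor of dentate granule cells, was higher (log2 change 0.51, SE 0.12, adjusted p = 0.0242), as the single called gene of 12 granule cell markers. Of 11 CA1 pyramidal markers 2 were lower, Wfs1 (-0.53) and Mpped1 (-0.37), and of 13 CA2 and CA3 markers 0 were called in edgeR. Of 17 interneuron markers 1 was lower and 0 were higher. Choroid plexus markers were unevenly spread, at 268 to 900 CPM in SIT and 68.5 to 157 CPM in 5 separate libraries, with 1597 CPM in TG7.3.2, and none of 14 was called in edgeR, while 5 were higher without TG7.3.2.

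Immediate early genes are switched on within minutes by neuronal activity or handling. Of 27 tested, 1 was higher in SIT, 0 were lower and 26 were not called, where 3.30% of all genes were higher. Their median log2 change was 0.84. The called gene was Btg2, a growth-arrest gene, at 372 CPM in NT6.304 and at 15.4 to 19.7 CPM in the other 3 SIT libraries, against 7.16 to 19.0 CPM in separate isolation (log2 change 2.90, SE 0.80, adjusted p = 0.0457). Egr1 was at 780 CPM in NT6.304 and at 179 to 339 CPM in the other SIT libraries, against 167 to 310 CPM. Without NT6.304, 0 of the 27 were called in edgeR and the median log2 change was 0.22. The call was also lost without TG7.3.1, TG7.3.2, TG9.2.1 or TG9.2.2, while 7 genes were higher without TG7.4.2 and 3 without TG7.4.1.

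Genes that were higher and lower differed in the length of their coding sequence. Over 14687 protein-coding genes of the nuclear genome with a coding sequence in the annotation, Spearman's rho between coding length and the log2 change was -0.39, which describes genes of the same libraries and not independent replicates. The median coding length was 1410 bases for all of them, 700.5 bases for those higher in SIT and 2793 bases for those lower. In the decile of genes with the shortest coding sequence, 11.03% were higher and 0.477% lower, with a median log2 change of 0.19. In the decile with the longest, 0.681% were higher and 18.2% lower, with a median of -0.26. The median fell from each decile to the next.

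The length of the 3' untranslated region did not show such an order, with a rho of 0.04 and medians of 959, 1228 and 998 bases for all, higher and lower genes. GC content had a rho of -0.22, with medians of 49.96% for all genes, 45.4% for the higher and 53.8% for the lower ones. Coding length and GC content were nearly unrelated (rho 0.02), and within deciles of GC content the rho of coding length with the log2 change was -0.46 to -0.29. By level, the rho was -0.22 in the quartile of genes with the lowest CPM and -0.53 in the quartile with the highest. It was negative under each of the 20 alternative settings, including the one with the mouse prefix as a term. In sedentary mice, which are compared further on, the rho was -0.12 with all 10 libraries and -0.42 without NT7.2.3 and NT7.2.4. RNA quality per library was not used here, and its part in the length difference was not tested.

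Set against the mean of the separate libraries (without the library itself where it was one of them), coding length had a rho of -0.27 in NT6.303, -0.19 in NT6.304, -0.31 in TG7.4.1 and -0.44 in TG7.4.2. The separate libraries ran from -0.21 in TG9.1.3 to 0.14 in TG7.3.1, with 2 of 6 negative. TG9.1.3 and NT6.304 thus overlapped, and the groups were otherwise apart.

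Some classes differed by about as much as other genes of their length and some by more. Rab GTPases had a median log2 change of 0.16, and the median over the length deciles of the same genes was 0.15. Plexins and calcium channel subunits, at -0.40 and -0.28, compare with -0.26 for their deciles. Postsynaptic scaffolds (-0.23), glutamate receptor subunits (-0.29) and kinesins (-0.26) compare with -0.16 for theirs. Dendritic mRNAs with a coding sequence were at -0.35 where their deciles were at -0.16, adenylyl cyclases at -0.68 where theirs were at -0.16, 14-3-3 proteins at 0.37 where theirs were at 0.15, and astrocyte markers at -0.58 where theirs were at 0.02. Synaptic vesicle genes were at 0.18 where their deciles were at -0.01. These differences from the deciles were not tested.

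**Figure D4:**
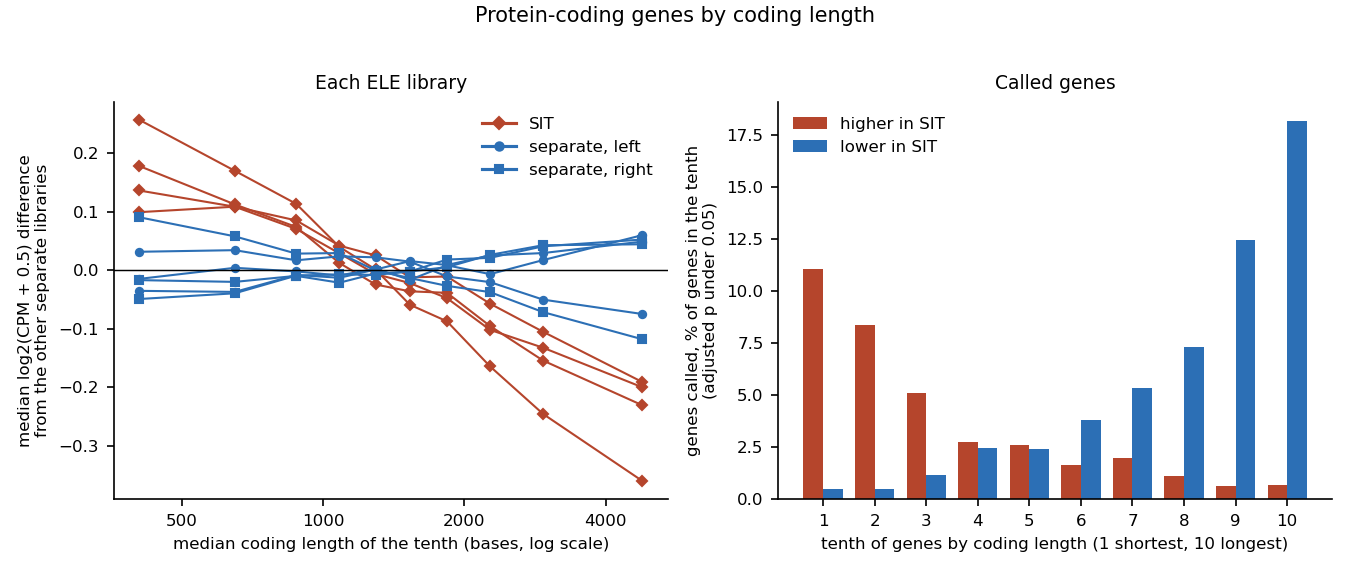
Protein-coding genes grouped in deciles by coding length. The left axis gives, for each ELE library, the median difference in log2(CPM + 0.5) from the other separate libraries against the median coding length in bases on a log scale (SIT as red diamonds, separate left as blue circles, separate right as blue squares), and the right axis gives the percentage of genes called in each decile. All 4 SIT lines lie higher for the shortest than for the longest decile, with the largest drop in TG7.4.2, and TG9.1.3 is the separate library with the largest drop.

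Within the TG7 mice alone, with 2 libraries on either side, 12 genes were higher and 1 lower of 17861 tested in edgeR. Mitochondrial mRNAs had a median log2 change of 2.77 there, adenylyl cyclases -0.75, astrocyte markers -0.39, dendritic mRNAs -0.34, actin turnover genes 0.35, 14-3-3 proteins 0.41 and immediate early genes 0.01. Coding length had a rho of -0.41. These 4 libraries are among the 10 and are no separate evidence, but NT6 and TG9 mice have no part in these values. The SIT mice there were TG7.4.1 and TG7.4.2 and the separate mice TG7.3.1 and TG7.3.2. The middle part of the mouse number therefore cannot be told apart from the method.

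Sedentary mice gave a comparison that shares no library with the one above, with 4 SIT and 6 separate libraries. All 4 sedentary SIT mice had numbers starting with NT6 or NT7 and all 6 separate ones numbers starting with TG7 or TG9, so that prefix and method cannot be told apart there, and NT6 mice were set against TG9 mice in both comparisons. Of 18086 genes tested, 1113 (6.15%) were higher in SIT and 1148 (6.35%) lower. In the sedentary SIT libraries NT7.2.3 and NT7.2.4, genes of the mitochondrial genome took 8.64% (95% Wilson interval 8.63 to 8.64%) and 9.64% (9.63 to 9.65%) of the counts. Without them the SIT arm consists of the NT6 mice NT6.305 and NT6.306. In that comparison, 1028 of 18911 genes (5.44%) were higher and 1537 (8.13%) lower. Of the genes higher in SIT in ELE mice, 367 were also higher in these remaining sedentary libraries, which is 62.0% of the ELE genes and 35.9% of the sedentary ones. Of the genes lower in ELE mice, 608 were also lower, which is 74.1% and 40.0% of each list, and 0 genes were called in opposite directions. The log2 changes had the same sign for 98.9% of the genes called in ELE mice and for 71.9% of all genes tested in both. With NT7.2.3 and NT7.2.4 in, 267 genes were higher and 438 lower in both, 2 were called in opposite directions, and the same sign was found for 89.7% of called and 64.6% of all genes.

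By class, and without NT7.2.3 and NT7.2.4, sedentary mice had 13 of 13 mitochondrial mRNAs higher (median log2 change 2.19), 11 of 28 actin turnover genes higher, 6 of 7 14-3-3 genes higher, 15 of 28 dendritic mRNAs lower and 2 higher, 16 of 28 postsynaptic scaffolds lower and 2 higher, 6 of 8 adenylyl cyclases lower and 8 of 16 astrocyte markers lower. With these libraries in, the mitochondrial median was 5.91 with 13 of 13 higher, and 9 of 28 actin turnover and 5 of 7 14-3-3 genes were higher. Of the classes lower in SIT, 10 of 28 dendritic mRNAs were then lower and 3 higher, 9 of 28 postsynaptic scaffolds lower and 2 higher, 4 of 8 adenylyl cyclases lower and 9 of 16 astrocyte markers lower. Shank3 had a log2 change of -1.31 (adjusted p = 0.000291) without NT7.2.3 and NT7.2.4 and of -0.94 (adjusted p = 0.00762) with them, and Rab6a one of 0.45 (adjusted p = 0.00127) and of 0.64 (adjusted p = 0.00158). Of cytosolic ribosomal protein genes, 57 of 83 were higher without NT7.2.3 and NT7.2.4, with a median log2 change of 0.41, or 44 of 83 and 0.35 with all sedentary libraries.

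Whether the isolation difference itself differed between ELE and sedentary mice was tested with an interaction term over all 20 libraries. In edgeR 0 of 19275 genes passed, the lowest adjusted p was 0.166, and 1875 genes (9.73%) had an unadjusted p under 0.05. DESeq2 called 12 genes higher and 140 lower. Without NT6.304, NT7.2.3 and NT7.2.4, 0 of 20345 genes passed in edgeR and 1138 (5.59%) had an unadjusted p under 0.05. Ranked by p-value, the first 5 were Laptm5, Btbd11, Met, Dlx2 and mt-Rnr2, each with an adjusted p of 0.166. mt-Rnr2, the larger mitochondrial ribosomal RNA, was at a mean of 121 and 57.7 CPM in SIT and separate ELE libraries and of 2691 and 54.0 CPM in the sedentary ones, and its interaction p without the 3 libraries was 0.999. By list, an unadjusted interaction p under 0.05 was found for 13 of 13 mitochondrial mRNAs, 15 of 15 microglia markers, 15 of 17 interneuron markers, 11 of 27 immediate early genes, 11 of 15 nuclear-retained long RNAs and 28 of 83 cytosolic ribosomal proteins. Without the 3 libraries these counts were 0 of 13, 0 of 15, 2 of 17, 0 of 27, 0 of 15 and 25 of 83, and 0 of these genes passed after adjustment in edgeR in either fit.

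**Figure D5:**
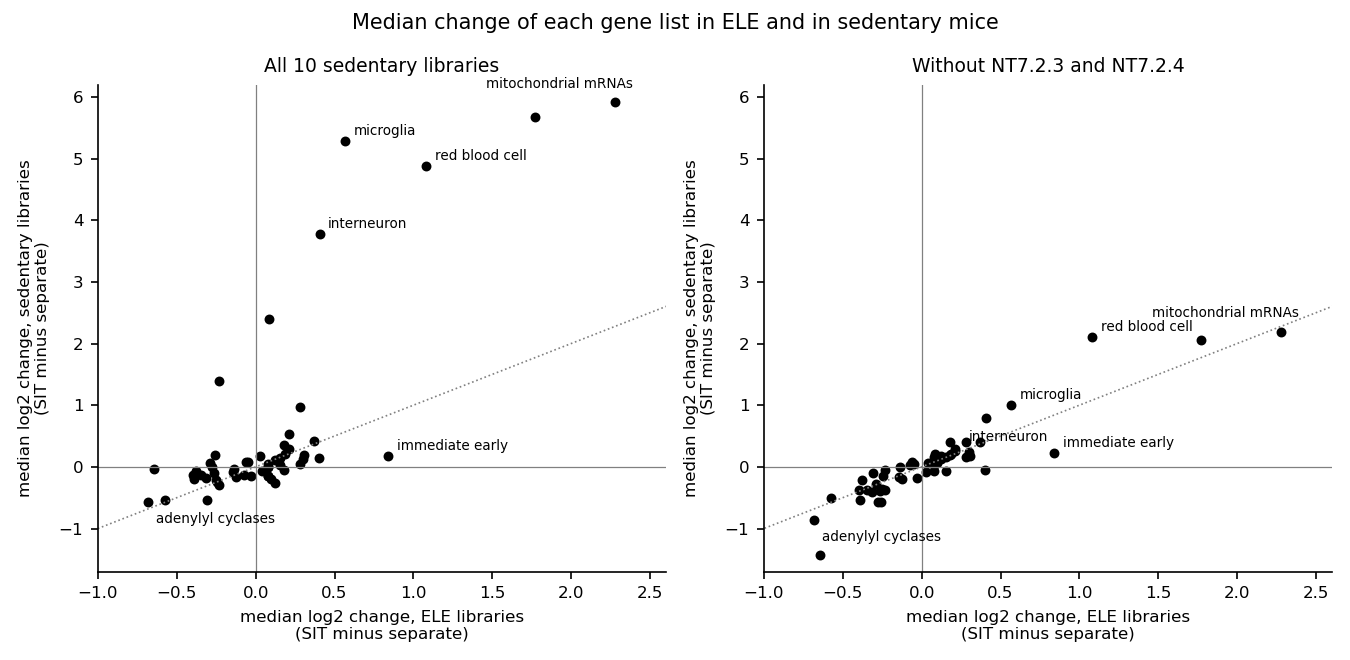
Median log2 change (SIT minus separate) of each gene list in ELE mice (horizontal axis) and in sedentary mice (vertical axis), with all 10 sedentary libraries on the left and without NT7.2.3 and NT7.2.4 on the right. The dotted line marks equal changes. Microglia, red blood cell and interneuron markers stand far above the line on the left and closer to it on the right, and the immediate early genes lie below it (0.84 against 0.23 on the right).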

How the data were processed

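Hippocampal TRAP RNA of 20 Emx1-NuTRAP mice was sequenced. The authors used STAR for alignment to GRCm38, took out duplicates with Picard, assigned read pairs to gene exons, and deposited the whole-number counts without normalization. The submitters' processing notes name FastQC 0.11.9, STAR 2.7.3a, Picard 1.87, R 4.1.0 and DESeq2 1.32.0. Columns of the count table are named by mouse, and the isolation, hemisphere and exercise of each mouse were read from the study's sample quality sheet and matched to the labelled groups. A table of 24 wild-type libraries was not used here. All 20 columns could be placed in a group, and 0 could not. Each of the 55335 rows names a gene, and GENCODE M21 (GRCm38) matched 54587 of them with their version and 55154 without it.

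Counts of the 10 ELE libraries were normalized by TMM, filtered with filterByExpr and compared, 4 SIT against 6 separate, with edgeR 4.0.16 (quasi-likelihood test, R 4.3.3) and Benjamini-Hochberg adjustment. A gene was called at an adjusted p under 0.05. The SE of a log2 change was derived from its size and the F statistic, and CPM are counts per 1000000 on TMM-scaled library sizes and not corrected for gene length. All p-values measure the spread between single mice. The sedentary libraries were compared in the same way, and the interaction was fitted over all 20. On simulated counts of the ELE comparison (17943 genes, 200 of them changed by a log2 fold of 1, dispersion 0.02), 91% of the changed genes were called and 5.21% of the calls were false. At the common dispersion of the real ELE counts (0.105), 21% were called and 0% of the calls were false.

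The members, the gene lists and the tests were chosen with earlier results of these data known, and 12 further families were added after gene values had been seen. Lists are described by counts and medians, with no test of the list. Genes were named by rule: the 12 called genes with the smallest p in each direction with a gene symbol, a mean of at least 1 CPM and groups that did not overlap, the 3 members of each list with the highest mean CPM and the 2 with the smallest p, the 5 interaction genes with the smallest p, and 5 cell type markers. Further called members of the lists were named after their values were seen. Values of a few selected genes are not reported here. The longest coding sequence of each gene and its 3' untranslated region came from the annotation. Alternatives were DESeq2 1.42.0, voom weights in limma 3.58.1, other size factors, no filter, each library left out, either hemisphere alone, the mouse prefix as a term, no mitochondrial or rRNA genes, 1 fit over all 20 libraries, and, added after seeing the data, NT6.304 and TG9.1.4 both left out.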

Additional observations from a re-analysis of the deposited data

Results flagged for a closer look

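Within the SIT or the separate ELE libraries, 17 of 174 values tested had 1 library far from the others by Dixon's criterion, while chance flags about 1 in 20 groups. None of these gaps was tested for a cause.

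NT6.304 stood apart for immediate early genes (8165 CPM summed), striatal markers (896 CPM), interneuron markers (1110 CPM) and cytosolic aminoacyl-tRNA synthetases (1621 CPM against 1012 to 1101 CPM in the other SIT libraries). TG9.1.4 stood apart among the separate libraries for striatal markers (318 CPM) and interneuron markers (656 CPM) and for mt-Nd4l (17.0 CPM), mt-Nd2 (72.0 CPM), mt-Atp8 (19.7 CPM), mt-Nd5 (91.0 CPM) and Adcy5 (316 CPM). In mt-Nd5 the other separate libraries were at 48.9 to 52.3 CPM, and all SIT libraries were at 159 CPM or more.

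TG7.3.2 stood apart for choroid plexus markers (1597 CPM) and haemoglobin genes (8.90 CPM against 2.54 to 4.91 CPM), and TG9.1.3 for Matr3 (143 CPM against 117 to 126 CPM). Among SIT libraries, NT6.303 had the lowest mitochondrial ribosomal protein level (2720 CPM against 2898 to 2907 CPM) and the highest total count (58097062), and TG7.4.2 had the highest share of counts in rRNA genes (0.731%).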

How the results depend on the processing

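Genes called higher and lower in SIT numbered 1026 and 1324 with DESeq2, 958 and 1196 with voom weights, 625 and 804 with median-of-ratios factors, 441 and 667 without a filter, 634 and 891 in 1 fit of all 20 libraries, 573 and 814 without mitochondrial and rRNA genes, 716 and 1024 without NT6.304 and TG9.1.4, 41 and 98 against the right hippocampus alone, 0 and 0 against the left alone, and 19 and 20 with the mouse prefix as a term. With 3 separate libraries the lone-hemisphere comparisons had fewer samples. Leaving out 1 library gave 334 to 733 higher and 480 to 986 lower genes. The count moved by over 1.5 times without NT6.303 (386 higher), TG7.4.1 (334 and 480), TG9.2.1 (385 and 536), TG9.2.2 (361 and 505) or TG7.3.1 (351 and 504). Many list counts of 1 or 2 genes also changed when a library was left out. DESeq2 called 12 and 140 interaction genes where edgeR called 0. Of the 24 genes with the smallest p-values, whose direction their choice by groups that do not overlap largely fixes, 0 were called against the left hippocampus alone and 19 with the mouse prefix. Of all named genes, 0 changed direction with a call. With the mouse prefix as a term the medians of translation factors (-0.0072), heat shock chaperones (-0.0890), circadian (-0.0338) and thalamic genes (-0.104) changed sign, as did those of choroid plexus (-0.551), meningeal fibroblast (-0.766) and GABA-A receptor genes (-0.0645). Without NT6.304 those of ER chaperones (-0.0157), proteasome subunits (-0.0105) and meningeal fibroblasts (-0.0219) did, and without NT6.304 and TG9.1.4 those of circadian (-0.0083) and thalamic genes (-0.00038) did. Further list medians near 0, such as those of aminoacyl-tRNA synthetases and striatal markers, changed sign under 1 or more settings. The causes were not tested.

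No paired analysis was possible because each library came from a different mouse and no mouse was in both isolation groups. The mouse prefix, which does not pair single mice, could be fitted as a term and is given above. At these depths a count of 3 is 0.0456 to 0.0595 CPM in the ELE libraries, so depth limits the lowest genes.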

Other observations

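Among genes that code for no protein, processed pseudogenes, which are copies of spliced mRNAs, gave 30 of 830 genes higher in SIT and 5 lower, with a median log2 change of 0.20. Over all genes tested 3.30% were higher and 4.58% lower, and the processed pseudogenes that were higher are near that share. Their reads can come from the parent genes, so that these values are uncertain. Of 712 long intergenic RNAs, 3 were higher and 9 lower. Snhg1, a host gene of small nucleolar RNAs, was the single called member of 15 nuclear-retained long RNAs (log2 change 0.58).

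Metabolic lists had small numbers of called members, where 3.30% of all genes tested were higher and 4.58% lower. In glycolysis, Pgam1 was higher (log2 change 0.36) and Ldhb (-0.46) and Pfkm (-0.35) were lower, of 17 genes. Gapdh was at 1296 to 1361 CPM in SIT and 1261 to 1433 CPM in separate isolation, with a log2 change of -0.01 (SE 0.05, adjusted p = 0.970). Of 21 heat shock chaperones, Chordc1 (0.56), Dnajb4 (0.34) and Dnaja1 (0.31) were higher and Hspa8 (-0.26) was lower, and with 1 library left out 1 to 5 were higher and 0 to 3 lower. Of 23 cholesterol genes 2 were lower, among them Sqle (-0.48). Of 19 cytosolic aminoacyl-tRNA synthetases, Vars (-0.70) and Qars (-0.48) were lower. Of 69 translation factors, Eif4e (0.36) and Eif5a (0.41) were higher and the elongation factor Eef2 (-0.27) was lower. Neither count of translation factors was above the share of all genes. In the circadian list and the list of replication-dependent histones, 0 of 18 and 0 of 31 genes were called in edgeR.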
